A study of Sus scrofa with 6 samples.

Results

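The mitochondrial respiratory chain was followed in pig aortic valve leaflets under normal and raised cyclic pressure. Its genes were taken as those whose single platform symbol starts with NDUF, SDH, UQCR, COX or ATP5, without the assembly factors named SDHAF and NDUFAF and without pseudogenes. This gave 61 of 6765 genes that the array names with 1 symbol. They were 32 genes of complex I, 4 of complex II, 2 of complex III, 8 of complex IV, 13 of complex V and 2 that are not subunits. Each gene was read from its brightest probe set, a group of short probes for 1 transcript. Of the 61 genes, 58 lay above the low-signal filter, which kept probe sets with a mean signal of at least 48.5. NDUFS6, NDUFV3 and COX8H lay below it. None of the 61 genes is encoded by the mitochondrial DNA, so the values concern nuclear genes.

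Leaflets were taken from adult female pigs, their endothelium was removed with collagenase II, and they were cultured overnight. They were then held for 24 h in a bioreactor under pressure cycling at 1 Hz, between 0 and 80 mmHg in the normotensive group and between 0 and 120 mmHg in the hypertensive group, with 3 samples in each. Serum-supplemented medium, collagenase treatment and the overnight culture were shared by both groups, and no leaflet without cyclic pressure was measured here. The labels describe biological replicates without saying if a sample was 1 leaflet or if different animals gave them, and p-values therefore measure only the spread between these samples, which may be technical. RNA from each sample went through repeated in vitro transcription before it was read on the Affymetrix porcine expression array. Signals below are given for replicates 1, 2 and 3 of the normotensive group and then, after the word "against", for replicates 1, 2 and 3 of the hypertensive group.

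The respiratory chain sits in the inner mitochondrial membrane. Complexes I and II take electrons from NADH and succinate and pass them through ubiquinone to complex III, and cytochrome c carries them on to complex IV, which reduces oxygen to water. Complexes I, III and IV pump protons, and complex V, the ATP synthase, uses the returning protons to make ATP. Complex II is encoded wholly in the nucleus, while the others also hold subunits encoded in the mitochondria.

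All 7 measured markers of valve interstitial cells and fibroblasts lay above the filter, with vimentin (VIM) at signals of 18606 to 26412. Of 8 endothelial markers 4 lay above it, and of 6 leukocyte markers 5. None of 11 measured markers of striated and cardiac muscle did, and cardiac troponin T (TNNT2) was between 0.81 and 3.91 on every array. The summed signal of the interstitial markers was 73899 to 74826 on the normotensive arrays and 50960 to 64527 on the hypertensive arrays. That of the endothelial markers was 2400 to 2812 and 1627 to 2254. Both sums thus lay lower on every hypertensive array. Those of the leukocyte and smooth muscle markers overlapped between groups. All 7 interstitial markers had a lower mean. Only LUM and POSTN, 2 of the 7 (28.6%, against 12% of all probe sets), lay lower on every hypertensive array. The other interstitial markers overlapped between groups. VIM (26412) and COL3A1 (4309) on hypertensive replicate 2 lay above every normotensive array. The endothelial markers did not share one direction. ERG lay lower on every hypertensive array, at 1675, 1142 and 1780 against 899, 1019 and 973. CDH5, below the filter, lay higher on every hypertensive array, at 30.3, 12.3 and 40.5 against 68.4, 115 and 84.9. The other endothelial markers overlapped between groups. The part of these markers in the differences below was not tested. In tissue RNA, fewer cells of a type and less RNA per cell cannot be told apart.

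At hypertensive pressure, 44 of the 58 genes had a lower mean and 14 a higher one, with a median difference of -0.23 on the log2 scale. All differences below are hypertensive minus normotensive log2 signal, with the standard error (SE) of the fit and 3 arrays per group. Over all 14399 probe sets above the filter 52.7% had a lower mean and the median was -0.04, and over the 5271 named genes it was -0.07. The count of 44 was 36 without normotensive replicate 2 and 41 to 48 without any other array. Single differences were small against the spread: by limma 0 of the 58 genes passed an adjusted p of 0.05, as did 0% of all probe sets, and 0 of the 58 had an unadjusted p under 0.05. Of all probe sets 7.39% were higher and 9.53% lower at that unadjusted level. The smallest unadjusted p among the genes was 0.051, that of COX7C, with an adjusted p of 0.295.

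In 9 of the 58 genes, 15.5%, every hypertensive array lay below every normotensive array, against 12% of all probe sets. In 1 gene, 1.72%, every hypertensive array lay above, against 10.4%. Together these were 10 genes. Without normotensive replicate 3 the count was 25 (43.1%), where all probe sets gave 31.3%. Of these genes 24 lay below and 1 above, against 17.8% and 13.5% of all probe sets. Without hypertensive replicate 2 the count was 32 (55.2%), where all probe sets gave 54.9%. Of these genes 24 lay below and 8 above, against 29.7% and 25.2% of all probe sets. Leaving out any of the other arrays gave 10 to 13 genes. All probe sets then gave 27.5% without normotensive replicate 1, 32% without normotensive replicate 2, 26.6% without hypertensive replicate 1 and 33.1% without hypertensive replicate 3. The hypertensive arrays did not behave alike. Replicate 1 lay below all normotensive arrays in 28 genes and above them in 12, where all probe sets gave 42.8% and 37.3%. Replicate 3 lay below in 31 and above in 8, against 38.7% and 34.5% of all probe sets. Replicate 2 lay below in 21 and above in 5, against 29% and 30.7%. Replicates 1 and 3 together lay below in 24 genes and above in 8, against 29.7% and 25.2%.

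The genes also moved together among the normotensive arrays. Normotensive replicate 3 was the lowest of its group in 48 of 58 genes, against 38.8% of all probe sets, and replicate 2 was the highest in 43, against 39%. The median over the 58 genes of the log2 signal minus the gene's normotensive mean was 0.03, 0.21 and -0.23 on normotensive replicates 1 to 3. It was -0.21, -0.09 and -0.31 on hypertensive replicates 1 to 3. The lowest normotensive array therefore lay between the hypertensive arrays. Over all probe sets the same medians stayed between -0.07 and 0.03 on every array. In 34 of the 58 genes the standard deviation of log2 signal was larger at hypertensive pressure, against 77.5% of all probe sets. Its median was 0.23 at normotensive and 0.30 at hypertensive pressure, where all probe sets gave 0.23 and 0.49.

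**Figure D1:**
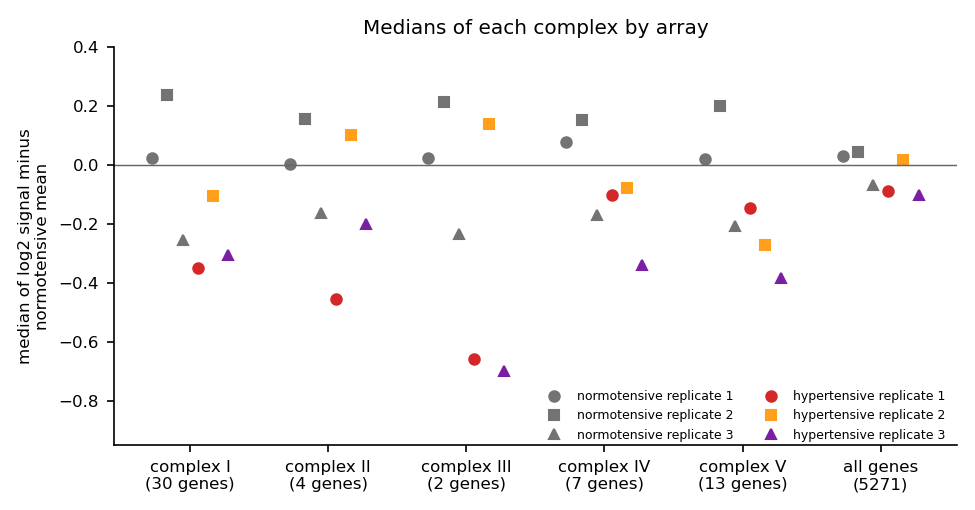
Median, over the genes of each complex above the filter, of log2 signal minus the gene's normotensive mean, on each of the 6 arrays. Grey symbols are normotensive arrays and coloured symbols hypertensive ones. In complexes I, IV and V all 3 hypertensive medians were below 0, and in complexes II and III that of hypertensive replicate 2 was above 0.

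By complex, the median log2 difference was -0.18 for complex I, -0.16 for II, -0.41 for III, -0.14 for IV and -0.28 for V. Each of these lay below the -0.07 of all named genes, and the complexes differ in how many genes they rest on. Hypertensive replicate 1 had a median of -0.35 in complex I, -0.46 in II, -0.66 in III, -0.10 in IV and -0.15 in V. The corresponding medians of replicate 2 were -0.10, 0.10, 0.14, -0.08 and -0.27. Those of replicate 3 were -0.31, -0.20, -0.70, -0.34 and -0.38. Hypertensive replicate 3 was thus low in every complex, hypertensive replicate 1 chiefly in complexes I to III, and hypertensive replicate 2 chiefly in complex V. Normotensive replicate 3 was low in every complex too, with medians of -0.25, -0.16, -0.24, -0.17 and -0.21. It lay below hypertensive replicate 2 in complexes I to IV and below hypertensive replicate 1 in complexes IV and V. In complex V hypertensive replicate 2 lay below all normotensive arrays in 9 of 13 genes, and in complex I in 8 of 30. Over all probe sets this share was 29%, so the count in complex I was near it.

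**Figure D2:**
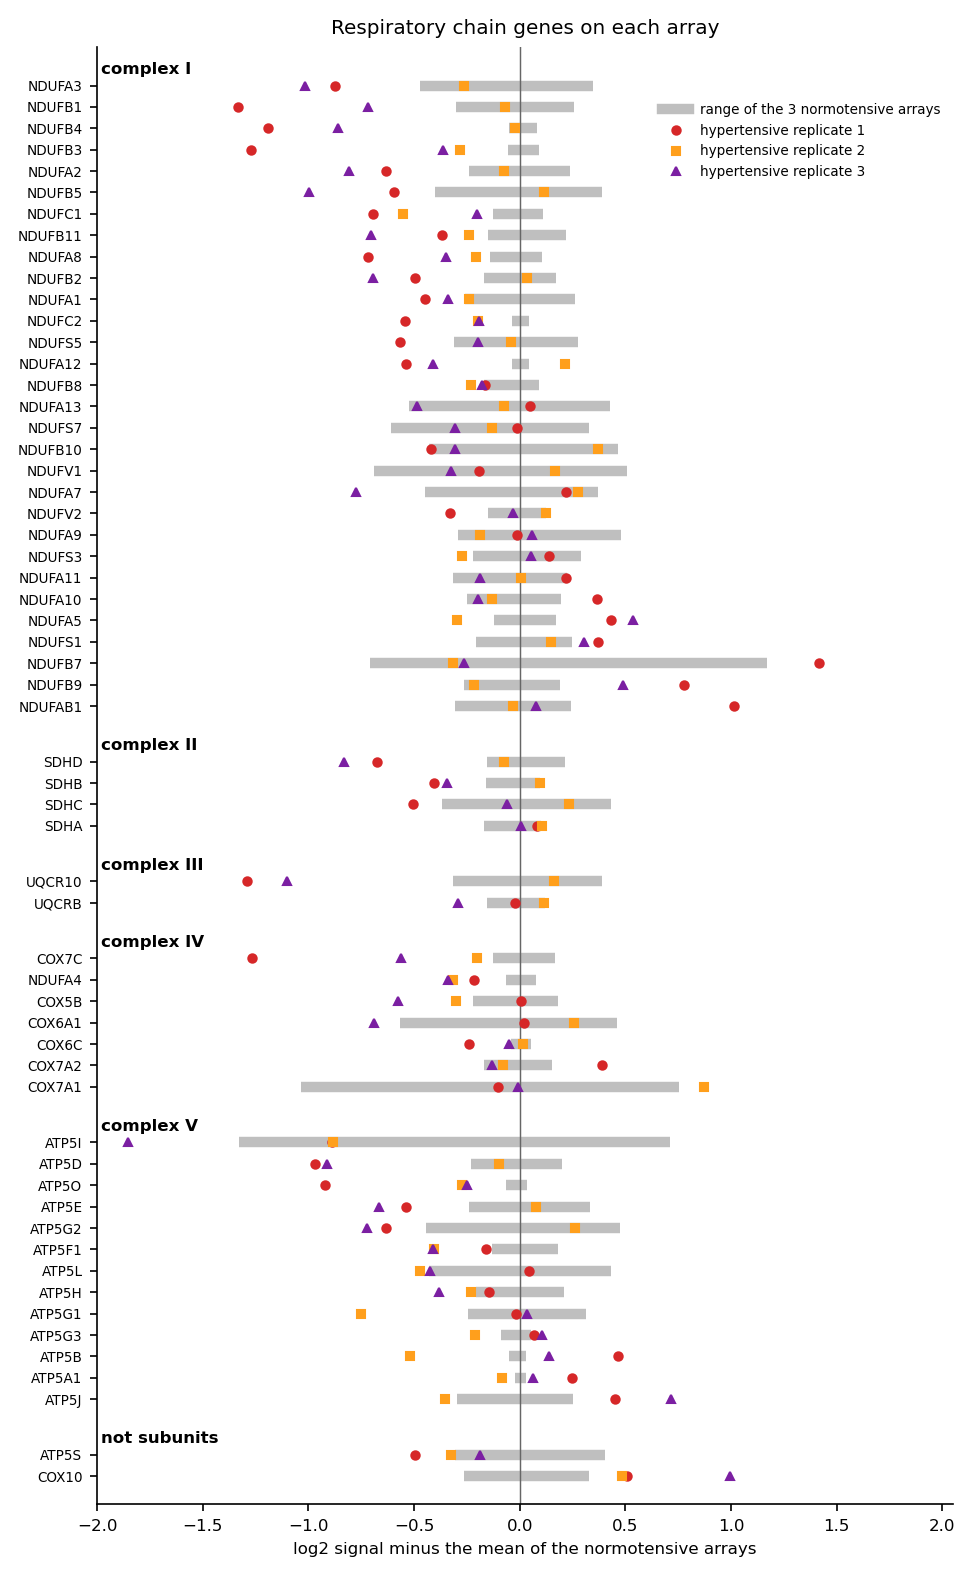
Log2 signal of each of the 58 genes on the 3 hypertensive arrays, minus its normotensive mean, grouped by complex and ordered by the fitted difference. The grey bar is the range of the 3 normotensive arrays. In 9 genes all coloured symbols lie left of the bar, and in COX10 all lie right of it.

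Complex I couples the oxidation of NADH to proton pumping. Its nuclear-encoded core subunits carry the redox centres of the matrix arm, and 5 of them were measured. Their differences were small, with a median of -0.08 and a range of -0.15 to 0.27. For the brightest probe set of each of the 5 the 95% interval stayed inside a 2-fold change. NDUFV1, which binds NADH and flavin, had signals of 477, 598 and 261 against 368, 472 and 335, so every hypertensive value lay inside the normotensive range (-0.12, SE 0.37). NDUFV2, an iron-sulfur subunit beside it, was at 2506, 2074 and 2343 against 1830, 2503 and 2252 (-0.08, SE 0.23). NDUFS1, the large iron-sulfur subunit, was the 1 core gene with a higher mean. Its signals were 936, 1140 and 834 against 1244, 1064 and 1188, with replicate 2 inside the normotensive range (0.27, SE 0.25). NDUFS3 (-0.03, SE 0.27) and NDUFS7, which holds the last iron-sulfur centre before ubiquinone (-0.15, SE 0.34), lay close to 0.

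The accessory subunits, which surround the core and are needed for assembly and stability, had a median of -0.27 over 25 genes. The 19 genes of the membrane arm, the proton-pumping part, had a median of -0.34, with 15 lower. The 10 genes of the matrix arm, core subunits included, had a median of -0.09, with 8 lower. With array weights the medians were closer, at -0.34 and -0.26. In 5 of the 19 membrane arm genes and in 0 of the 10 matrix arm genes all hypertensive arrays lay below all normotensive arrays, where all probe sets gave 12%. The 10 NDUFB genes, all of the membrane arm, had a median of -0.41, with 8 lower. These are descriptions of groups of genes and were not tested against each other.

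Among the NDUFB genes, NDUFB3 had signals of 2749, 2995 and 2702 against 1164, 2312 and 2189. The groups did not overlap, and replicate 1 was by far the lowest (-0.64, SE 0.30, limma adjusted p = 0.315). NDUFB4 was at 2292, 2468 and 2253 against 1022, 2299 and 1286, so that replicate 2 lay within the normotensive range while replicates 1 and 3 lay far below it (-0.69, SE 0.32, adjusted p = 0.312). NDUFB1 showed the same order, with 2067, 2401 and 1629 against 796, 1913 and 1222 (-0.71, SE 0.35, adjusted p = 0.334). NDUFB11 was lower on all 3 hypertensive arrays, at 490, 535 and 388 against 603, 736 and 569 (-0.44, SE 0.27, adjusted p = 0.409). NDUFB2 (-0.38, SE 0.27) and NDUFB5 (-0.49, SE 0.36) had lower means with replicate 2 inside the normotensive range.

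NDUFB9 and NDUFB7 went the other way within the same arm. NDUFB9, of the LYR protein family, was at 1099, 1011 and 800 against 1648, 827 and 1350, with replicates 1 and 3 above the normotensive arrays (0.35, SE 0.32). NDUFB7 was near the filter on most arrays, at 33.8, 124 and 40.01 against 147, 44.3 and 45.85, and its mean rests on 1 bright array in each group (0.28, SE 0.65). NDUFB1, NDUFB2, NDUFB5, NDUFB7 and NDUFB9, like several genes below, were chosen after their values were seen.

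The other membrane arm genes with groups that did not overlap were NDUFC1, NDUFC2 and NDUFA8. NDUFC1 had signals of 2463, 2902 and 2710 against 1660, 1833 and 2332 (-0.48, SE 0.23, limma adjusted p = 0.319). NDUFC2, its neighbour in the complex, was at 2828, 2763 and 2924 against 1946, 2474 and 2485 (-0.31, SE 0.21, adjusted p = 0.446). NDUFA8, which faces the intermembrane space, was at 1138, 1197 and 1008 against 675, 964 and 874 (-0.42, SE 0.26, adjusted p = 0.403). In these 3 genes replicate 1 was the lowest array. NDUFA3 had the most negative difference of complex I (-0.72, SE 0.34, adjusted p = 0.315). Its signals were 834, 973 and 552 against 417, 638 and 378, so replicate 2 lay above normotensive replicate 3.

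In the matrix arm, NDUFA2 was at 480, 566 and 407 against 309, 456 and 274 (-0.51, SE 0.31). NDUFA12 was at 2324, 2239 and 2198 against 1554, 2610 and 1697, with replicate 2 above and the others below every normotensive array (-0.24, SE 0.26). NDUFA5 showed the opposite order, at 1007, 1234 and 1058 against 1476, 893 and 1587 (0.22, SE 0.30). NDUFAB1, the mitochondrial acyl carrier protein found in both arms, was at 1983, 2237 and 1530 against 3823, 1853 and 1996 (0.35, SE 0.33). The higher mean of NDUFAB1 rests on replicate 1, since the other hypertensive arrays lay inside the normotensive range. NDUFS6, below the filter, was at 32.3, 38.5 and 32.6 against 24.9, 71.3 and 3.85, and NDUFV3 at 6.97, 6.22 and 9.97 against 3.68, 7.92 and 33.0. These 2 genes were not tested.

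Complex II, succinate dehydrogenase, is also an enzyme of the tricarboxylic acid cycle. Its catalytic subunits and its membrane anchors were all measured. SDHA, the flavoprotein that oxidises succinate, had signals of 1701, 1740 and 1443 against 1718, 1745 and 1631 (0.07, SE 0.22), and its 95% interval ran from -0.45 to 0.58. SDHB, the iron-sulfur subunit, was at 3765, 3843 and 3229 against 2720, 3846 and 2838, so that replicate 2 matched the top of the normotensive range and the others lay below it (-0.22, SE 0.22). SDHC, an anchor, was at 543, 765 and 440 against 399, 666 and 545 (-0.11, SE 0.33). SDHD, the other anchor, was at 5265, 6356 and 4925 against 3433, 5207 and 3085, with replicates 1 and 3 below every normotensive array (-0.53, SE 0.25, limma adjusted p = 0.314). In all 4 genes normotensive replicate 2 was the highest and replicate 3 the lowest of its group.

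A further probe set of SDHA and of SDHB gave another picture of these genes. The further SDHA probe set was at 202, 190 and 118 against 262, 273 and 243, so that the groups did not overlap in the higher direction (0.65, SE 0.31, limma adjusted p = 0.316). The further SDHB probe set was at 1486, 1790 and 1546 against 4557, 1563 and 2868, with replicates 1 and 3 above the normotensive arrays (0.77, SE 0.38, adjusted p = 0.325). The brighter SDHB probe set had the same 2 arrays below. With the mean of all kept probe sets in place of the brightest, the complex II median was 0.08 instead of -0.16, so the direction for complex II depends on the probe set read. Of the 58 genes 8 had a further probe set above the filter, and in 4 of them all probe sets went one way.

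ATP5L and NDUFA1 also differed between their probe sets. ATP5L, subunit g of the ATP synthase, had signals of 1447, 1956 and 1075 against 1495, 1043 and 1080 in its brightest probe set (-0.28, SE 0.31). Its further probe set was at 157, 197 and 195 against 460, 71.6 and 622 (0.59, SE 0.73). NDUFA1, a small membrane arm subunit, was lower in both of its probe sets by different amounts. The brightest was at 2802, 3359 and 2339 against 2055, 2373 and 2214 (-0.34, SE 0.23), with replicate 2 just inside the normotensive range. The further one was at 485, 386 and 352 against 109, 312 and 112, with no overlap (-1.37, SE 0.44, unadjusted p = 0.014, limma adjusted p = 0.259). Its identifier marks probes that can match other transcripts too. NDUFB3 had a lower mean in both of its probe sets (-0.64 and -0.56), as did ATP5S (-0.34 and -0.04).

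**Figure D3:**
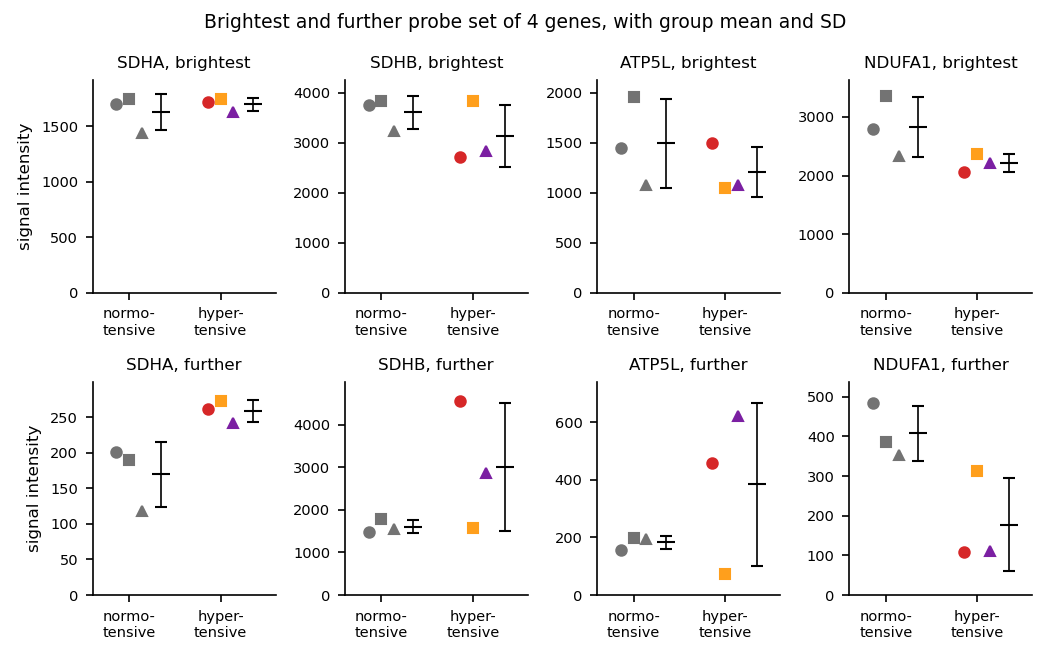
Signal on each array (linear axis from 0) for the brightest and a further probe set of SDHA, SDHB, ATP5L and NDUFA1. Grey symbols are normotensive and coloured symbols hypertensive arrays, with replicates 1, 2 and 3 as circle, square and triangle; bars are the group mean and SD, n = 3. For SDHB and ATP5L the mean is lower in one probe set and higher in the other.

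Complex III, the cytochrome bc1 complex, was represented by UQCR10 and UQCRB, both small subunits without redox centres. UQCR10 had signals of 1017, 1402 and 862 against 437, 1198 and 499. Replicates 1 and 3 lay below every normotensive array and replicate 2 lay within them (-0.74, SE 0.42, limma adjusted p = 0.372). UQCRB was at 5513, 5209 and 4550 against 5003, 5488 and 4140, with groups that overlapped (-0.07, SE 0.20). The complex III median of -0.41 therefore rests on UQCR10 alone. The identifier of the UQCRB probe set, like that of the further NDUFA1 probe set, marks probes that can match other transcripts too.

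Complex IV, cytochrome c oxidase, is the site of oxygen reduction, and all of its genes measured here encode regulatory subunits around the catalytic core. COX7C had the smallest p of the 58 genes. Its signals were 4312, 3724 and 3513 against 1592, 3335 and 2599, without overlap and with replicate 1 the lowest (-0.68, SE 0.30, limma adjusted p = 0.295). NDUFA4, long assigned to complex I and now counted in complex IV, was at 6618, 6199 and 5999 against 5385, 5027 and 4955. Its hypertensive arrays lay close together and below all normotensive arrays, and the difference was small (-0.29, SE 0.17, adjusted p = 0.374). COX5B, which binds zinc, was at 2545, 2797 and 2116 against 2479, 2003 and 1654 (-0.29, SE 0.25). COX6C was at 9815, 10490 and 9993 against 8550, 10213 and 9746 (-0.09, SE 0.15), with a 95% interval from -0.43 to 0.25.

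Some complex IV subunits exist as tissue isoforms. COX6A1, the widely expressed form of its pair, was at 2900, 3701 and 1817 against 2729, 3219 and 1670 (-0.14, SE 0.35). COX7A2, the widely expressed form of subunit 7A, was at 4569, 5015 and 4018 against 5905, 4272 and 4123 (0.06, SE 0.22). COX7A1, its heart and skeletal muscle counterpart, was at 98.2, 136 and 39.5 against 75.4, 148 and 80.4 (0.25, SE 0.52). COX8H, a heart form of subunit 8, lay below the filter at 94.9, 51.7 and 52.3 against 66.4, 55.5 and 11.7 and was not tested. The muscle forms were thus read at or near the filter level, and the 11 cardiac muscle markers lay below it. Both forms of subunit 7A overlapped between the groups.

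Complex V consists of the F1 part in the matrix, where ATP is made, the membrane ring of c subunits that turns with proton flow, and a peripheral stalk that holds both. Of its 13 genes 10 had a lower mean. In the F1 part the catalytic beta subunit ATP5B was at 5930, 5652 and 5969 against 8081, 4084 and 6427 (0.03, SE 0.26). Replicate 2 lay below the normotensive arrays and the other 2 above them. The alpha subunit ATP5A1 was at 10571, 10658 and 10962 against 12739, 10120 and 11196, in the same order (0.08, SE 0.15). The small subunits of the central stalk had lower means, with ATP5D (delta) at 580, 651 and 482 against 289, 530 and 301 (-0.66, SE 0.33, limma adjusted p = 0.328). ATP5E (epsilon) was at 1535, 2063 and 1387 against 1128, 1726 and 1031 (-0.38, SE 0.30). In ATP5D and ATP5E replicate 2 lay within the normotensive range and replicates 1 and 3 below it, the reverse of the order in ATP5B and ATP5A1.

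The c subunit of the ring is encoded by ATP5G1, ATP5G2 and ATP5G3, whose mature products are identical. ATP5G1 was at 1667, 2170 and 1471 against 1723, 1038 and 1787, with replicate 2 as the low array (-0.24, SE 0.30). ATP5G2 was at 895, 1269 and 673 against 590, 1095 and 555, with replicates 1 and 3 as the low arrays (-0.36, SE 0.37). ATP5G3 was at 7035, 6383 and 6938 against 7101, 5845 and 7302 (-0.01, SE 0.17). Replicate 2 was the low array in ATP5G1 and ATP5G3, below every normotensive array, but not in ATP5G2, and the groups overlapped in each.

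In the peripheral stalk, ATP5F1 (subunit b) was at 10049, 8535 and 8090 against 7920, 6679 and 6668, without overlap (-0.33, SE 0.17, limma adjusted p = 0.349). ATP5O, the subunit that joins the stalk to F1, was at 3961, 3966 and 3707 against 2046, 3211 and 3261, also without overlap (-0.48, SE 0.24, adjusted p = 0.336). ATP5H (subunit d) had a lower mean (-0.25, SE 0.21). ATP5J (coupling factor 6) was at 1200, 945 and 1382 against 1586, 909 and 1907, with replicates 1 and 3 above the normotensive arrays and replicate 2 below them (0.27, SE 0.34). Stalk genes thus did not share one direction.

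Among the membrane subunits ATP5I, subunit e, had the most negative difference of the 58 genes. Its signals were 538, 575 and 140 against 190, 190 and 96.9 (-1.21, SE 0.57, limma adjusted p = 0.316). Normotensive replicate 3 lay below hypertensive replicates 1 and 2, so the groups overlapped. The hypertensive signal was 0.432 times the normotensive signal, and 0.273 times without normotensive replicate 3. Leaving out 1 array moved no other respiratory chain gene described here and above the filter by more than 1.5 times in its brightest probe set. Genes below the filter and further probe sets are not covered by that statement.

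The 2 genes that are not subunits lay on opposite sides. COX10, which makes the heme O precursor of the heme of complex IV, was the 1 gene with all hypertensive arrays above all normotensive arrays. It was close to the filter, at 63.5, 48.6 and 42.3 against 72.0, 71.0 and 101 (0.66, SE 0.35, limma adjusted p = 0.349). ATP5S was at 689, 973 and 594 against 521, 587 and 645 (-0.34, SE 0.29).

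**Figure D4:**
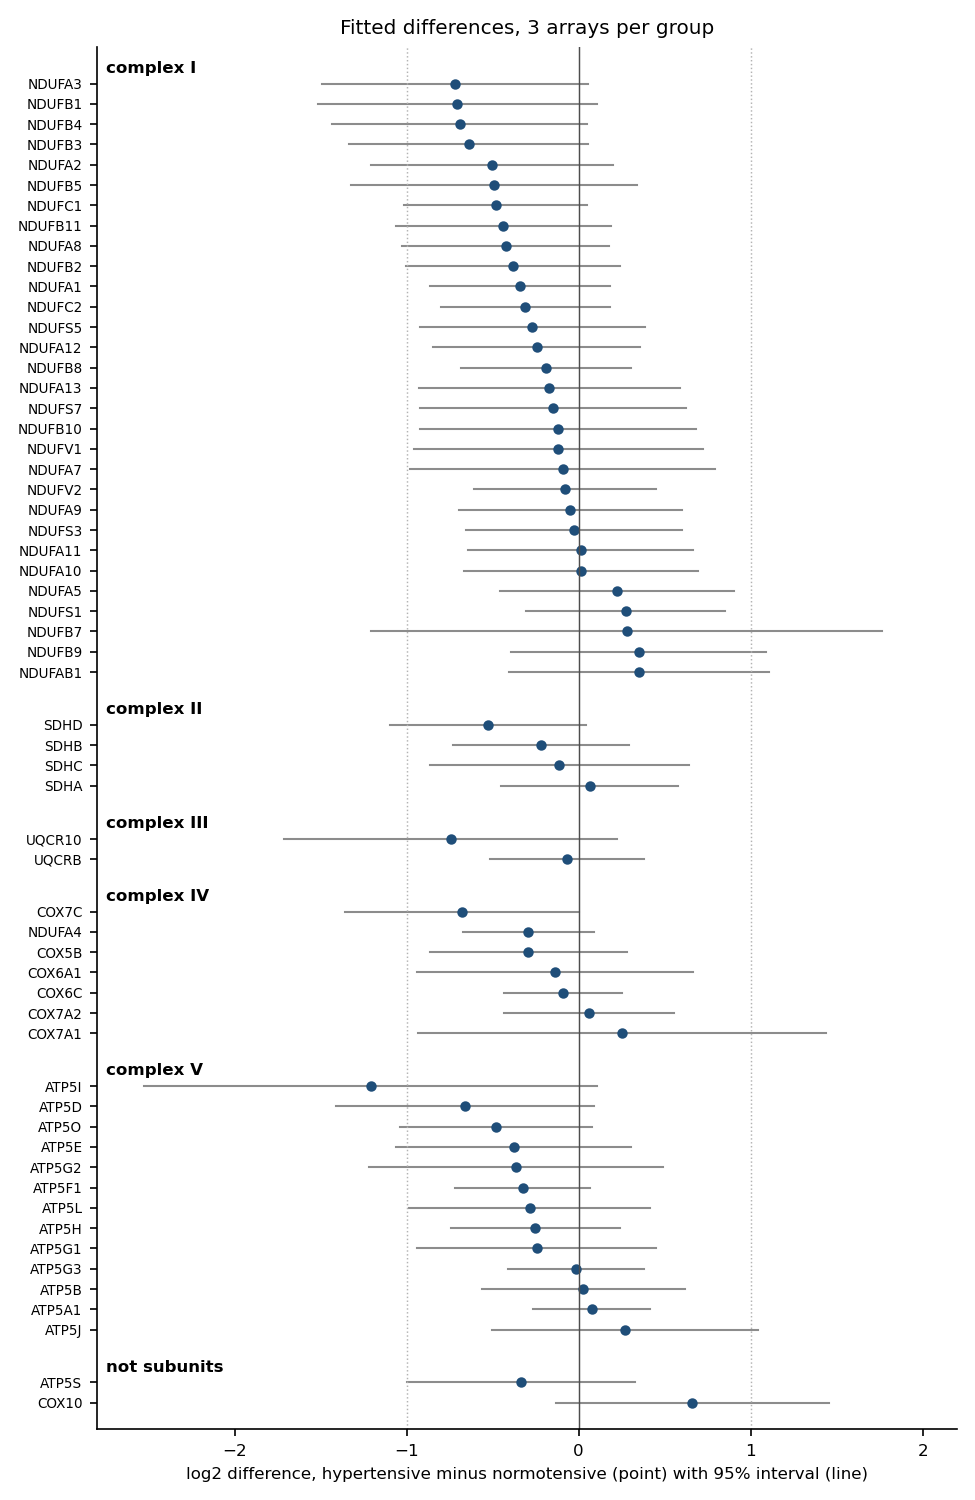
Fitted log2 difference, hypertensive minus normotensive, of each of the 58 genes with its 95% interval from limma, 3 arrays per group. Dotted lines mark a 2-fold change. The interval crosses 0 in every gene and stays inside the dotted lines in 33.

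The intervals show how far these arrays can resolve a change. The median half-width of the 95% interval was 0.67 on the log2 scale, and 49 of the 58 differences were within 1.5-fold. In 33 genes the interval of the brightest probe set excluded a 2-fold change in either direction. Among them were all 5 core subunits of complex I and SDHA, SDHB, COX6C, ATP5A1, ATP5B and ATP5G3. In the other 25 a 2-fold change in at least 1 direction was not excluded. It was also not excluded in a further probe set of SDHA (0.65, SE 0.31), SDHB (0.77, SE 0.38), NDUFS3 (-0.24, SE 0.56) and NDUFV2 (-0.50, SE 0.40). The same held for a further probe set of ATP5L (0.59, SE 0.73) and of NDUFA1 (-1.37, SE 0.44). The NDUFA1 value itself lay beyond 2-fold, although the brightest probe sets of ATP5L and NDUFA1 are among the 33. Lower means were the more frequent at both signal levels, in 24 of the 29 genes at or above the median signal and 20 of the 29 under it. The median differences were -0.25 and -0.12, and the part of signal level was not tested.

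The call for single genes turned on hypertensive replicate 2. Without it, 6 genes passed an adjusted p of 0.05 by limma, all lower, which is 10.3% of the 58, and 14% of all probe sets passed as lower and 10.3% as higher. They were NDUFB4 (-1.03, adjusted p = 0.0149), UQCR10 (-1.20, 0.0214), SDHD (-0.75, 0.0270), ATP5D (-0.94, 0.0333), NDUFB1 (-1.03, 0.0349) and COX7C (-0.91, 0.0358). They come from all 5 complexes. Over all alternatives the adjusted p of these 6 genes ran from 0.00495 to 0.730. In 5 of the 6, replicate 2 lay inside the normotensive range, and in COX7C it lay below that range. No gene passed as higher without replicate 2 (0 of 58), and NDUFB9 came closest (0.63, adjusted p = 0.0973).

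**Figure D5:**
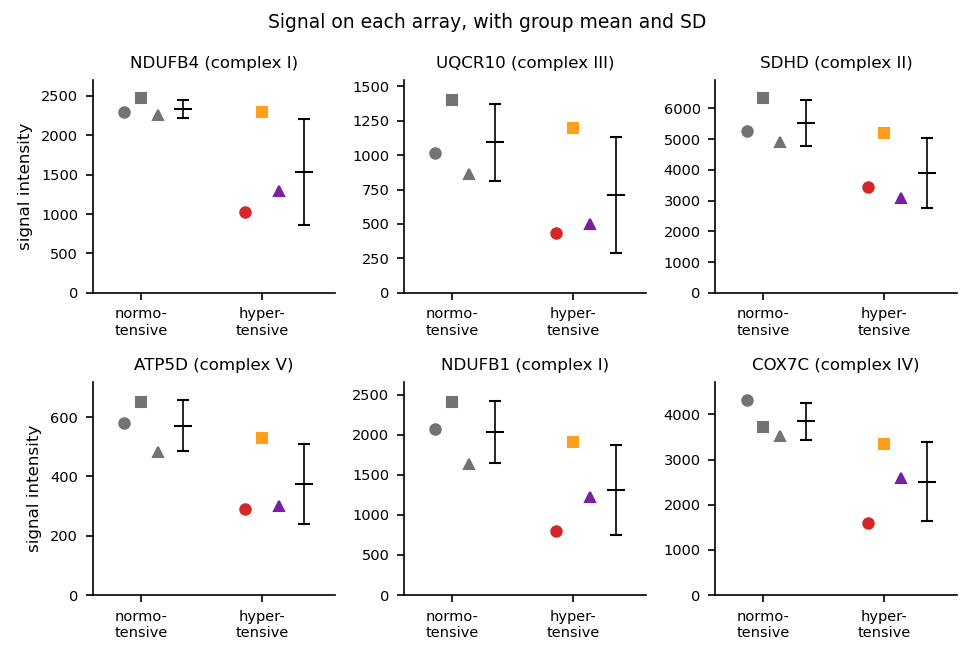
Signal on each array (linear axis from 0) for the 6 genes that passed the threshold when hypertensive replicate 2 was left out. Grey symbols are normotensive and coloured symbols hypertensive arrays, with replicates 1, 2 and 3 as circle, square and triangle; bars are the group mean and SD, n = 3. The square of the hypertensive group lies nearest to the normotensive values in each panel.

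When arrays were weighted by their fit to the model, 18 genes passed by limma, 16 lower and 2 higher, against 22.3% and 16.9% of all probe sets. All 6 genes above were among them, and the 2 higher genes were NDUFA5 and ATP5J. The weights were 0.289, 0.195 and 2.38 for hypertensive replicates 1 to 3 and 6.96, 0.931 and 1.15 for normotensive replicates 1 to 3, so this fit leans on normotensive replicate 1 and hypertensive replicate 3.

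Ratios of 3′ to 5′ probe signal for control transcripts, which rise as RNA is shortened by degradation or amplification, differed between arrays. For 1 of 3 GAPDH probe pairs they were 3.02, 2.11 and 7.52 on normotensive replicates 1 to 3 and 3.67, 2.91 and 6.04 on hypertensive replicates 1 to 3. The other GAPDH pairs gave higher ratios on every array, from 4.56 to 24.8 and from 17.6 to 37.4. Normotensive replicate 3 had the highest and replicate 2 the lowest ratio of its group for all 3 GAPDH pairs, actin and elongation factor 1 alpha. Normotensive replicate 3 was also the lowest, and replicate 2 the highest, of its group for the respiratory chain genes. The hypertensive arrays kept no common order, since replicate 3 had the highest GAPDH ratios and the lowest actin ratio. Actin ratios were 49.1, 41.1 and 109 against 79.5, 81.7 and 52.5. The part of RNA length in the values of the respiratory chain genes was not tested.

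Other mitochondrial genes were set beside the chain. None of the lists held a gene past an adjusted p of 0.05 by limma. Of 58 genes of the mitochondrial ribosome, which translates the mitochondrially encoded subunits, 40 had a lower mean and the median was -0.21, with 6 lower and 1 higher at an unadjusted p under 0.05. These were 10.3% and 1.72% of the list, beside 9.53% and 7.39% of all probe sets. MRPL52 was at 1319, 1056 and 1415 against 604, 862 and 817 (-0.74, SE 0.27), and MRPL2 at 1347, 937 and 1076 against 504, 904 and 472 (-0.89, SE 0.33). In 10 of these genes all hypertensive arrays lay below all normotensive arrays and in 3 above, against the 12% and 10.4% of all probe sets. Of 12 assembly factors 8 had a lower mean, with a median of -0.29. NDUFAF2, a complex I assembly factor, was at 295, 281 and 219 against 110, 243 and 184 (-0.63, SE 0.36), and NDUFAF3 had a difference of -0.46 (SE 0.27).

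Genes that feed electrons to the chain split evenly in the direction of their means. Of 16 genes of the tricarboxylic acid cycle and pyruvate dehydrogenase 8 had a lower mean (median -0.01). At an unadjusted p under 0.05 by limma 2 were lower (12.5%) and 0 higher, against 9.53% and 7.39% of all probe sets. The 2 lower genes were SUCLG1, a subunit of succinyl-CoA ligase (-0.83, SE 0.31), and DLAT, the acetyltransferase of pyruvate dehydrogenase (-0.72, SE 0.31). In 3 of the 16 genes (18.75%) all hypertensive arrays lay below all normotensive arrays and in 0 above, against 12% and 10.4% of all probe sets. Of 6 electron carriers and other entry points 3 had a lower mean. GPD2, the mitochondrial glycerol-3-phosphate dehydrogenase, was at 37.8, 60.9 and 31.4 against 139, 131 and 153, with no overlap and with normotensive values near the filter (1.76, SE 0.36, unadjusted p = 0.0011, limma adjusted p = 0.195). SQOR, which passes electrons from sulfide to ubiquinone, was at 5396, 4643 and 4704 against 670, 5005 and 1260, with replicate 2 at the normotensive level (-1.60).

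Protein import had 10 of 18 genes with a higher mean (median 0.03), among them TOMM70 at 52.7, 33.5 and 46.7 against 72.8, 66.3 and 76.6 (0.72), while TIMM21 had a difference of -0.99. Of 3 regulators of mitochondrial biogenesis above the filter, TFAM, which packages and transcribes mitochondrial DNA, was at 3743, 3315 and 3888 against 4746, 4285 and 5335 without overlap (0.39, SE 0.19, limma adjusted p = 0.328). TFB1M, which modifies the mitochondrial ribosomal RNA, was at 333, 307 and 277 against 49.9, 318 and 93.6 (-1.42). Of 8 genes that move ATP, phosphate or protons 5 had a lower mean (median -0.15). The phosphate carrier SLC25A3 was higher on every hypertensive array (0.43, unadjusted p = 0.030, adjusted p = 0.276), and the pore VDAC3 had a lower mean (-0.75, SE 0.35). Of 5 antioxidant genes 4 had a lower mean (median -0.44), with GPX4, which reduces lipid peroxides, at -0.85 and PRDX5 at -1.01.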

How the data were processed

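The authors deposited 1 signal intensity per probe set and array, on a linear scale, made with GCOS and MAS5 per the submitters' processing notes (versions not given in the sources used here). Trimmed means of 500.11 to 500.131 on the 6 arrays show a common scaling, which removes differences in total RNA. Control probe sets (124 of 24123) were left out. Intensities were taken to log2 without a pseudocount, and probe sets at or above the 40th percentile of mean log2 intensity (signal 48.5) were kept. The 2 pressures were tested, 2-sided, by lmFit and trended eBayes of limma 3.58.1 (R 4.3.3), with Benjamini-Hochberg adjustment over 14399 probe sets. The script was tested on simulated data. All 61 symbols matched the Sscrofa11.1 RefSeq table; 3 probe sets with several symbols, among them 1 for COX17 and 1 for COX6B, were left out.

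The genes and lists were chosen with earlier results of these data known. Named genes were the 4 of smallest p and the 1 of highest signal in complexes I, III, IV and V, all of complex II, isoform pairs, non-subunits, genes below the filter and genes whose groups did not overlap, and the 2 of smallest p in each further list. NDUFA1, NDUFA2, NDUFA5, NDUFA12, NDUFAB1, NDUFB1, NDUFB2, NDUFB5, NDUFB7, NDUFB9, NDUFS1, NDUFS3, NDUFS7, NDUFV1, NDUFV2, ATP5B, ATP5E, ATP5H, ATP5J and ATP5L were chosen after their values were seen. Alternatives were a replicate block, array weights, eBayes without the trend, the filter dropped or set at the 60th percentile, a pseudocount of 16 or 64, a median shift or quantile normalization between arrays, the mean of all kept probe sets, and leaving out each array. The number of arrays limits the precision, and detection calls were not used here.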

Additional observations from a re-analysis of the deposited data

Results flagged for a closer look

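The further probe set of SDHA lay outside the main reading of that gene and had every hypertensive array above every normotensive array. Its hypertensive signal was 1.57 times the normotensive signal, while the brightest SDHA probe set gave 1.05 times. The difference did not pass the threshold (0.65, SE 0.31, limma adjusted p = 0.316), and which probe set reads the gene was not tested.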

How the results depend on the processing

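No gene was past the threshold under a replicate block (0 of 58, and 0 probe sets). With every replicate number present in both groups, the block cannot change the differences, so the unchanged medians of the complexes carry no information. Same-numbered arrays correlated at 0.059, 0.072 and 0.226 in their deviations from the group means. Each array correlated best with its own number, which is a hint from the data and not the design. With array weights 5639 probe sets and 18 genes passed; leaving out 1 array gave 0 to 3505 probe sets (3505 without hypertensive replicate 2 and 1 without normotensive replicate 2) and 0 to 6 genes. Groups that did not overlap numbered 10 to 32 genes over arrays left out. This was 25 genes (43.1%, against 31.3% of all probe sets) without normotensive replicate 3, with 24 below and 1 above. It was 32 genes (55.2%, against 54.9%) without hypertensive replicate 2, with 24 below and 8 above. The shares below and above over all probe sets were 17.8% and 13.5% in the first setting and 29.7% and 25.2% in the second. Lower means numbered 36 without normotensive replicate 2 and 41 to 48 without any other array. Over arrays left out the median ran from -0.38 to -0.13 for complex I, -0.33 to -0.034 for II, -0.68 to -0.26 for III, -0.32 to -0.064 for IV and -0.39 to -0.13 for V. The complex IV median was -0.38 with array weights, and the complex II median 0.083 with the mean of all kept probe sets. The median was -0.19 for complex I and -0.11 for complex IV with NDUFA4 counted in complex I, a setting chosen after seeing the data. The medians of complexes I, III, IV and V were below 0 under every alternative. Quantile normalization gave 46 lower means of 58 and a median shift 41, with medians over all probe sets of -0.01 and 0.02 in place of -0.04.

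The difference changed sign under at least 1 alternative in 17 of the 50 genes of the chain named with one, also in ATP5L, ATP5G1, SDHB, COX7A1 and NDUFB7 (-0.28, -0.24, -0.22, 0.25 and 0.28 as reported). With quantile normalization the value was -0.045 for ATP5A1 and -0.020 for ATP5B. With array weights the value was 0.026 for ATP5G1, 0.045 for ATP5G3, -0.12 for COX7A1, -0.082 for COX7A2, 0.091 for NDUFS3 and -0.019 for SDHA. With a median shift the value was 0.045 for ATP5G3 and 0.031 for NDUFS3. With the mean of all kept probe sets the value was 0.15 for ATP5L and 0.28 for SDHB. Over arrays left out the differences ran from -0.011 to 0.15 for ATP5A1, -0.19 to 0.30 for ATP5B, -0.38 to 0.0076 for ATP5G1, -0.073 to 0.087 for ATP5G3 and -0.42 to 0.14 for COX6A1. They ran from -0.26 to 0.63 for COX7A1, -0.11 to 0.15 for COX7A2, -0.29 to 0.86 for NDUFB7, -0.14 to 0.12 for NDUFS3 and -0.45 to 0.012 for NDUFS7. The ranges were -0.46 to 0.14 for NDUFV1, -0.18 to 0.046 for NDUFV2, -0.019 to 0.12 for SDHA, -0.30 to 0.10 for SDHC and -0.16 to 0.046 for UQCRB. The cause was not tested.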
